A study of Mus musculus with 8 samples.

Results

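Synaptotagmins are the calcium-binding proteins that couple calcium entry to membrane fusion, and 10 genes of the family were followed here through the ribosome-associated messages of the mouse ventral tegmental area. The 10 genes were those listed as calcium sensors of the family and its close relatives (Syt1, Syt2, Syt3, Syt4, Syt5, Syt6, Syt7, Syt9, Syt11 and Syt17). Each symbol matched a single row of the deposited table of 56691 gene IDs, and all 10 passed the filter on low counts that left 19912 genes for testing. They were set by name, with earlier results of these data known.

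The mice, male by their genotypes, received a pair of adeno-associated viruses in the ventral tegmental area. AAV-TH-Cre drives Cre recombinase from the tyrosine hydroxylase promoter. AAV-Flex-NBL10 makes the HA-tagged, ribosome-associated protein NBL10 only where Cre is present. Messages were enriched through that tag, so the libraries depend on which cells carried both viruses. The Ogt flox+/Y group (Ogt knockdown, n = 4, replicates 2, 3, 4 and 5) was compared with the Ogt flox-/Y group (control, n = 4, replicates 3, 4, 5 and 6), which received the same viruses. The labels used here state no age. Whether each replicate is its own animal is likewise unstated, so every p-value reflects spread among libraries that may be technical.

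A synaptotagmin typically has a membrane anchor and tandem C2 domains, which bind calcium and phospholipid and act on the SNARE complex of vesicle and plasma membrane. Syt1 and Syt2 are the low-affinity, fast sensors of synaptic vesicles. Syt3, Syt6 and Syt7 are high-affinity forms, and Syt7 serves slow, asynchronous release and vesicle replenishment. Syt4 and Syt11 carry a serine in place of a calcium-binding aspartate in their first C2 domain, and Syt11 does not bind calcium. Syt17 lacks the usual membrane anchor. In the literature the names Syt5 and Syt9 have been exchanged for each other, so no separate role is given to either here. In dopamine neurons of the mouse, Syt1 is known as the main sensor of axonal dopamine release, while Syt4 and Syt7 have been linked to release from the cell body and dendrites.

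Library totals ran from 49802305 to 147747191 reads, and 3 reads correspond to between 0.0212 and 0.0626 CPM (reads scaled to a common library size by TMM), for counting error only. The lowest read count of any member in any library was 618, for Syt6. Ogt itself fell from 126 ± 22.8 to 49.8 ± 17.0 CPM (SD, n = 4 each; edgeR quasi-likelihood adjusted p = 0.00243), with no overlap between the groups. Every one of 16 dopamine neuron markers had reads in every library; 12 fell, 1 rose (Aldh1a1, log2 fold change 1.20, edgeR adjusted p = 0.00298) and 3 did not pass, with a median log2 fold change of -1.60. Their summed level was 2257 to 4026 CPM in controls and 1854 to 2495 CPM in knockdown libraries. Aldh1a1 alone had 498.6 to 979.5 CPM in controls and 1323 to 1951 CPM in knockdown libraries, most of each knockdown sum. The sums therefore say little of the 12 markers that fell. Th lay between 435 and 1241 CPM in controls and between 180.1 and 282.4 CPM in knockdown libraries. Control replicate 3 stood apart from the other libraries: 10 endothelial markers summed to 1140 CPM there, against 31.7 to 37.6 CPM in the other controls and 45.9 to 72.0 CPM in knockdown libraries. Markers of glia and of other neurons also differed between the groups. The summed level of 12 astrocyte markers was 1762 to 7160 CPM in controls and 11690 to 16760 CPM in knockdown libraries, and that of 12 microglia markers 15.7 to 33.0 and 51.9 to 166.4 CPM. No astrocyte or microglia marker was at 0 in any library. Of the 12 astrocyte markers 4 rose and 0 fell, and of the 12 microglia markers 10 rose and 0 fell. Beside these and the other marker counts, 15.1% of all genes tested were called lower and 13.4% higher. Of 12 oligodendrocyte markers 5 rose and 0 fell (1289 to 1911 CPM in controls, 1981 to 4481 CPM in knockdown libraries). For 11 of these 12 the groups overlapped, against 3 of 12 astrocyte and 2 of 12 microglia markers. Median log2 fold changes were 1.13 for astrocyte, 2.45 for microglia and 0.58 for oligodendrocyte markers. Of 10 endothelial and 8 pericyte and smooth muscle markers 0 rose and 0 fell, with control replicate 3 included. The pericyte and smooth muscle markers summed to 608.5 CPM in that library and 10.5 to 16.6 CPM in the other controls. In knockdown libraries they summed to 26.4 to 40.1 CPM. The summed level of 16 pan-neuronal markers was 11310 to 12240 CPM in controls and 5151 to 5827 CPM in knockdown libraries, and 13 of the 16 fell. Many markers of neurons other than dopamine neurons fell too. All 10 GABA neuron markers had reads in every library. The glutamate neuron marker Tbr1 had 0 reads in at least 1 library, as did Dbh, Slc6a2 and Chat of the serotonin, noradrenaline and acetylcholine list. Those lower were 7 of 10 for GABA neurons and 5 of 8 for glutamate neurons. For serotonin, noradrenaline and acetylcholine neurons 4 of 8 were lower, though the groups overlapped for 6 of the 8. In each of these 3 lists 0 rose. The GABA markers summed to 2298 to 2651 CPM in controls and 1251 to 1601 CPM in knockdown libraries. The part of these shifts in the synaptotagmin values was not tested beyond the alternative scalings given below. In bulk libraries such as these, fewer cells of a type and less RNA per cell cannot be told apart.

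Synaptotagmin messages were lower in the Ogt knockdown libraries as a share of all ribosome-associated reads. Of the 10 genes, 8 fell, 0 rose and 2 (Syt5 and Syt6) did not pass the test at an adjusted p of 0.05, while 15.1% of all genes tested were called lower, 13.4% higher and 28.5% either way. The median log2 fold change was -0.77 over the 10 genes and 0.0021 over all genes tested. Relative to pan-neuronal markers instead of all reads, 2 fell (Syt2 and Syt3), 5 rose (Syt4, Syt5, Syt6, Syt9 and Syt11) and 3 (Syt1, Syt7 and Syt17) did not pass, with log2 fold changes of -0.08, 0.03 and 0.08. On that scale 65.2% of all genes tested were called higher and 1.19% lower, with a median log2 fold change of 1.04. Summed over the 10 genes, control libraries held 2402 to 2496 CPM and knockdown libraries 1272 to 1525 CPM. The same sums came to 19.8% to 21.9% of the summed pan-neuronal markers in controls and 24.7% to 27.5% in knockdown libraries. For 9 of the 10 genes every knockdown library lay below every control library, an arrangement seen for 18.0% of all genes tested. The exception was Syt5.

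**Figure D1:**
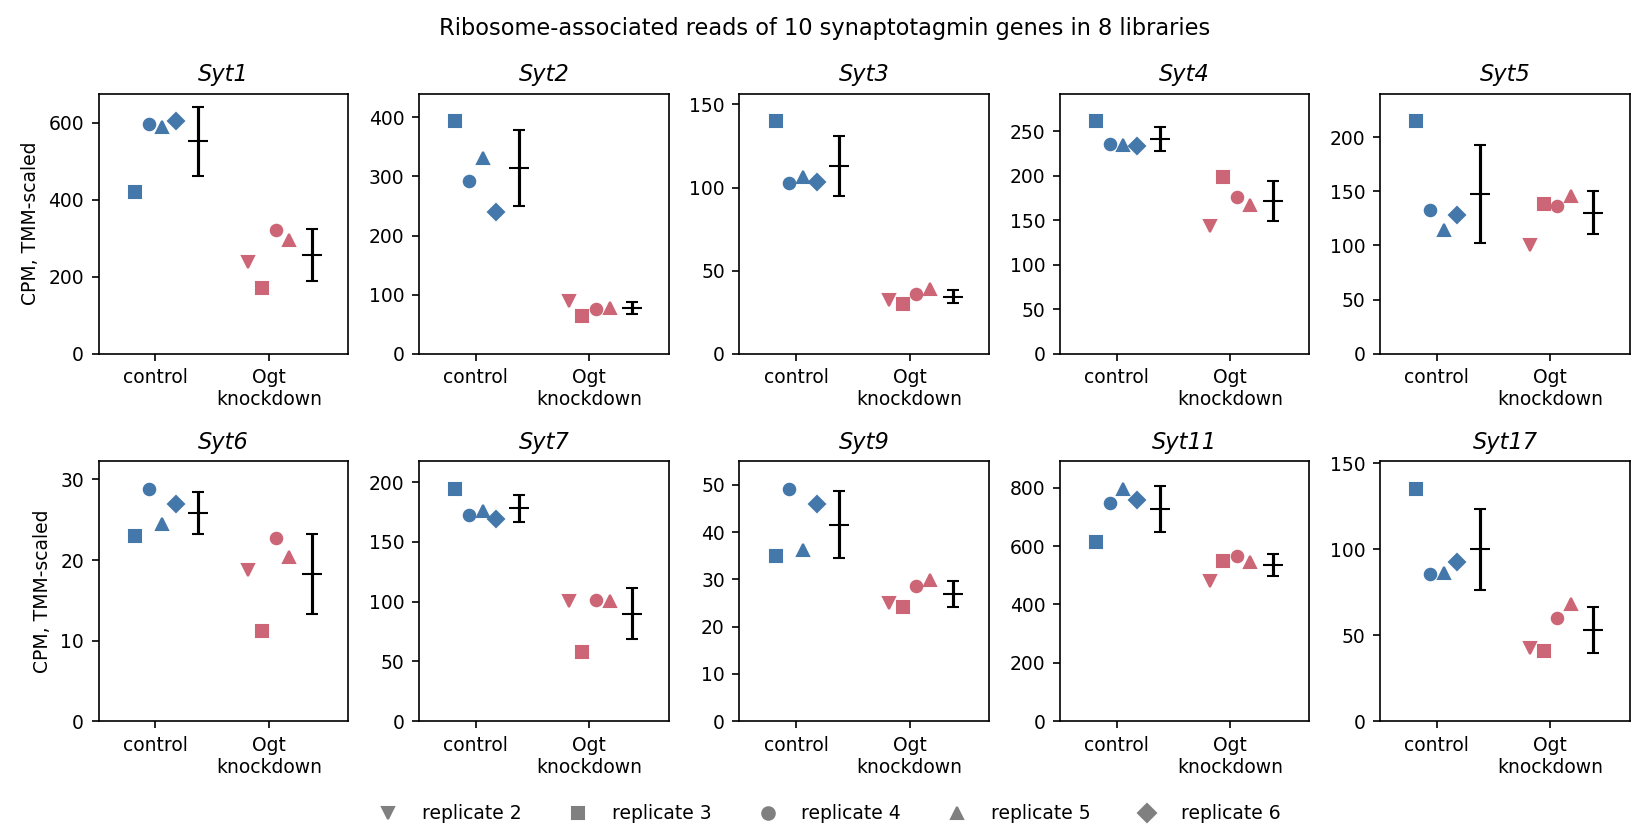
CPM (TMM-scaled) of each of the 10 synaptotagmin genes in 4 control and 4 Ogt knockdown libraries, 1 marker per library with its shape giving the replicate number, and the mean ± SD beside each group. In the other 9 panels the groups do not overlap, while for Syt5 the ranges overlap (100.8 to 145.3 CPM in knockdown libraries, 114.3 to 214.7 CPM in controls); scaled on pan-neuronal markers, 7 of the 10 genes change sign to above 0 (Syt4, Syt5, Syt6, Syt7, Syt9, Syt11 and Syt17).

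The fast vesicle sensors, Syt1 and Syt2, both fell relative to all reads, Syt2 by 4.10-fold and Syt1 by 2.15-fold. Syt2 (ENSMUSG00000026452.16, chromosome 1, 134574415 to 134690331, plus strand, GRCm39) is the form used at many fast inhibitory and brainstem synapses. Its level was 393.3, 292.4, 332.0 and 240.1 CPM in control replicates 3, 4, 5 and 6. Knockdown replicates 2, 3, 4 and 5 had 88.7, 64.2, 76.4 and 77.8 CPM. All 4 knockdown libraries lay close together and at less than the lowest control. The mean moved from 314.5 ± 64.6 to 76.8 ± 10.03 CPM (SD, n = 4 each; log2 fold change -2.04, SE 0.175, 95% interval -2.42 to -1.65, edgeR adjusted p = 0.000151). It was lower in all 20 alternative analyses, with log2 fold changes from -2.54 to -1.01, the smallest being on the pan-neuronal scale (edgeR adjusted p = 0.00108).

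Syt1 (ENSMUSG00000035864.15, chromosome 10, 108333511 to 108846843, minus strand, GRCm39) had 419.3, 596.3, 589.3 and 604.2 CPM in control replicates 3, 4, 5 and 6. It had 239.6, 170.0, 321.6 and 294.4 CPM in knockdown replicates 2, 3, 4 and 5. Control replicate 3, the library with the vascular markers, was the lowest control for Syt1 and the highest for Syt2, and knockdown replicate 3 was the lowest of all for both. The mean of Syt1 moved from 552.3 ± 88.9 to 256.4 ± 66.9 CPM (SD, n = 4 each; log2 fold change -1.11, SE 0.210, edgeR adjusted p = 0.00414). On the pan-neuronal scale its log2 fold change was -0.08 (edgeR adjusted p = 0.686), and with the non-neuronal marker score as a covariate it was -0.40 (edgeR adjusted p = 0.513).

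Within a library, the ratio of Syt2 to Syt1 reads does not depend on how libraries are scaled to each other. On the log2 scale it was -0.09, -1.03, -0.83 and -1.33 in control replicates 3, 4, 5 and 6, and -1.43, -1.41, -2.07 and -1.92 in knockdown replicates 2, 3, 4 and 5. The groups did not overlap, but control replicate 6 and knockdown replicate 3 were separated by little. The mean difference was -0.89 (1.85-fold; exact two-sided permutation p = 0.0286, the smallest that 8 libraries allow, and 0.0571 adjusted over the 2 ratios tested), so it did not pass after adjustment. It was lower in 4 of 4 knockdown libraries than in any control. Without control replicate 3 the difference was -0.65. The ratio of Syt7 to Syt1 averaged -1.62 ± 0.342 in controls and -1.51 ± 0.174 in knockdown libraries (SD, n = 4 each; exact permutation p = 0.543), with overlapping groups, and the difference was 0.28 without control replicate 3, against 0.11 with it (exact permutation p adjusted over the 2 ratios 0.0571 without it and 0.543 with it).

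For each gene of the fast pair, the stretch upstream of 1 of its annotated start sites is printed. RefSeq promoter windows on GRCm38.p6 were found for 6 of the 10 genes (Syt1, Syt2, Syt3, Syt6, Syt9 and Syt11), 10 windows in all, and both windows that overlap no annotated exon of GENCODE M21 are printed, at 250 bases upstream of the start. Capitals mark the GC box GGGCGG on either strand.
Syt1, chr10:109009112-109009361, minus strand: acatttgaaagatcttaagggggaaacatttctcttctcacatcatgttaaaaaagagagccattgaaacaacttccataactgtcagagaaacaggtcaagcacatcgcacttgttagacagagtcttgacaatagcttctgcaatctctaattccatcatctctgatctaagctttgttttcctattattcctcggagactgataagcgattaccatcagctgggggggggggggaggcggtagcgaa
Syt2, chr1:134709050-134709299, plus strand: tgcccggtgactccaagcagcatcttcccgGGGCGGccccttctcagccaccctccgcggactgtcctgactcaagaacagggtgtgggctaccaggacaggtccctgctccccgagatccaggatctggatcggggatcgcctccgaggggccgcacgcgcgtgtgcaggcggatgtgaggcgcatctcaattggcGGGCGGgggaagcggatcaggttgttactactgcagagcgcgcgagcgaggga
The printed Syt2 window held 2 GC boxes and the printed Syt1 window 0. In both genes the window that is not printed lies further upstream, and it held 3 GC boxes for Syt2 and 1 for Syt1. Over the 10 windows of the family, 8 held a GC box, against 32.7% of 32851 windows of the same length. Of the 10 windows 3 belong to Syt6, and 2 of these overlap and share their GC boxes; by gene, 5 of the 6 had a GC box in some window. The STAT motif TTCNNNGAA, which reads the same on both strands, was in 0 of the 10 windows and in 7.02% of all windows. With no STAT match there was no overlap between the motifs. Such matches describe letters only, and the counts cover all exons of a gene, so they do not say which start was in use.

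Among the high-affinity forms, Syt3 and Syt7 fell relative to all reads and Syt6 did not pass. Syt3 (ENSMUSG00000030731.14, chromosome 7, 44033526 to 44049611, plus strand, GRCm39), a form known for roles at the plasma membrane of neurons and in receptor uptake, fell 3.30-fold. It had 139.8, 102.5, 106.3 and 103.5 CPM in control replicates 3, 4, 5 and 6, and 32.3, 30.1, 35.6 and 38.8 CPM in knockdown replicates 2, 3, 4 and 5. The spread within knockdown libraries was small beside the distance between the groups. The mean moved from 113 ± 17.9 to 34.2 ± 3.83 CPM (SD, n = 4 each; log2 fold change -1.72, SE 0.145, edgeR adjusted p = 0.000142). Like Syt2 it was lower in all 20 alternative analyses, from -1.97 to -0.70 on the log2 scale, the smallest being on the pan-neuronal scale (edgeR adjusted p = 0.00237).

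Syt7 (ENSMUSG00000024743.17, chromosome 19, 10366454 to 10430544, plus strand, GRCm39) had 194.3, 172.5, 176.1 and 169.0 CPM in control replicates 3, 4, 5 and 6. It had 100.2, 57.5, 101.7 and 100.7 CPM in knockdown replicates 2, 3, 4 and 5. Knockdown replicates 2, 4 and 5 were nearly equal and knockdown replicate 3 lay well under them. The mean moved from 178 ± 11.2 to 90.0 ± 21.7 CPM (SD, n = 4 each), a 1.98-fold fall (log2 fold change -0.98, SE 0.182, edgeR adjusted p = 0.00367), and the log2 fold change was -0.82 without knockdown replicate 3. On the pan-neuronal scale it was 0.03 (edgeR adjusted p = 0.864), and with the non-neuronal score as a covariate it was -1.10 (SE 0.372, edgeR adjusted p = 0.0910). Many transcripts of Syt7 differ in the linker between anchor and C2 domains, and a count per gene cannot separate them. Syt6 (ENSMUSG00000027849.20, chromosome 3, 103482547 to 103552885, plus strand, GRCm39), the member with the lowest level, had 23.0 to 28.8 CPM in controls and 11.2 to 22.7 CPM in knockdown libraries. Its groups did not overlap, but the log2 fold change of -0.50 (SE 0.207, 95% interval -0.96 to -0.04) missed the threshold (edgeR adjusted p = 0.0992). Syt6 passed as lower without both libraries numbered 3 (-0.37, edgeR adjusted p = 0.0128) and with limma-voom (-0.36, adjusted p = 0.0209), and as higher on the pan-neuronal scale (0.52, edgeR adjusted p = 0.0255).

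The members with a changed calcium site, Syt4 and Syt11, fell by the smallest amounts among the 8. They rose relative to pan-neuronal markers, as did most genes tested. On that scale they lay -0.49 and -0.44 from the median of all genes, which by arithmetic largely repeats their TMM values. Syt11 (ENSMUSG00000068923.15, chromosome 3, 88652007 to 88682471, minus strand, GRCm39), a regulator of vesicle recycling and a substrate of the ubiquitin ligase parkin, had 613.8, 746.3, 796.4 and 757.5 CPM in control replicates 3, 4, 5 and 6. It had 480.3, 548.9, 565.3 and 546.8 CPM in knockdown replicates 2, 3, 4 and 5. The lowest control and the highest knockdown library were close. The mean moved from 728.5 ± 79.4 to 535.3 ± 37.6 CPM (SD, n = 4 each; 1.36-fold, log2 fold change -0.44, SE 0.130, edgeR adjusted p = 0.0285). That call was lost when control replicate 4, 5 or 6 or knockdown replicate 2, 4 or 5 was left out (edgeR adjusted p = 0.0510 to 0.0924) with upper quartile scaling (0.0609) and with the non-neuronal score as a covariate (0.937). On the pan-neuronal scale the log2 fold change was 0.60 (edgeR adjusted p = 0.00257).

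Syt4 (ENSMUSG00000024261.7, chromosome 18, 31570861 to 31580459, minus strand, GRCm39), an activity-regulated form found on dense-core vesicles, had 261.0, 235.2, 234.5 and 233.2 CPM in control replicates 3, 4, 5 and 6. Knockdown replicates 2, 3, 4 and 5 had 143.8, 198.7, 176.3 and 166.9 CPM. Control replicates 4, 5 and 6 were almost equal, and knockdown replicate 3, the lowest library for Syt1, Syt2, Syt3 and Syt7, was the highest of its group for Syt4. The mean moved from 241 ± 13.4 to 171.5 ± 22.8 CPM (SD, n = 4 each; 1.41-fold, log2 fold change -0.49, SE 0.128, edgeR adjusted p = 0.0177). The call was lost with upper quartile scaling (edgeR adjusted p = 0.0503) and with the non-neuronal score as a covariate (-0.51, SE 0.268, adjusted p = 0.241), and on the pan-neuronal scale the log2 fold change was 0.55 (edgeR adjusted p = 0.0108). Of the exon bases of Syt4, 566 (14.5%) lie under Gm26658 on the other strand, where unstranded counting assigns reads to neither gene. Gm26658 had at most 55 reads in a library. The same holds for 505 exon bases of Syt6 (8.67%) under Atg4a-ps, which had at most 14 reads in a library.

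Of the remaining members Syt9 and Syt17 fell relative to all reads and Syt5 did not pass. Syt5 (ENSMUSG00000004961.8, chromosome 7, 4542764 to 4550540, minus strand, GRCm39) had 214.7, 132.5, 114.3 and 128.2 CPM in control replicates 3, 4, 5 and 6, and 100.8, 138.2, 136.9 and 145.3 CPM in knockdown replicates 2, 3, 4 and 5. Knockdown replicate 2 lay below every control, and knockdown replicates 3, 4 and 5 lay above every control but replicate 3. The log2 fold change was -0.18 (SE 0.207, 95% interval -0.64 to 0.28, edgeR adjusted p = 0.560), and 0.06 without control replicate 3 (edgeR adjusted p = 0.791). On the pan-neuronal scale Syt5 had the largest positive value of the 10 genes (0.84, edgeR adjusted p = 0.00915). Syt9 (ENSMUSG00000062542.12, chromosome 7, 106969935 to 107147863, plus strand, GRCm39) fell 1.55-fold, from 41.6 ± 7.04 to 26.9 ± 2.75 CPM (SD, n = 4 each; edgeR adjusted p = 0.0130), with controls at 34.96 to 49.1 CPM and knockdown libraries at 24.2 to 29.8 CPM. Syt17 (ENSMUSG00000058420.9, chromosome 7, 117979940 to 118047445, minus strand, GRCm39) fell 1.89-fold, from 100.1 ± 23.6 to 52.9 ± 13.4 CPM (SD, n = 4 each; edgeR adjusted p = 0.0101), with controls at 85.8 to 135.2 CPM and knockdown libraries at 40.9 to 68.3 CPM. Neither was lower on the pan-neuronal scale, where Syt9 was at 0.41 (edgeR adjusted p = 0.0192) and Syt17 at 0.08 (0.734). With the non-neuronal score as a covariate both missed the threshold, Syt9 at -0.12 (SE 0.266, edgeR adjusted p = 0.804) and Syt17 at -1.11 (SE 0.403, adjusted p = 0.110).

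Levels of different genes were compared per kilobase of exon (RPKM, CPM divided by the total exon length in kilobases). Syt11 led in both groups, at 140 ± 15.3 RPKM in controls and 102.8 ± 7.22 RPKM in knockdown libraries (SD, n = 4 each). In controls it was followed by Syt1 (66.2), Syt5 (61.9) and Syt4 (61.9 RPKM), which overlapped in range with each other. Next came Syt2 (41.2) and Syt3 (36.2 RPKM), also overlapping. Syt2 reached 51.5 RPKM in control replicate 3, so its range also overlapped those of Syt1 (from 50.3) and Syt5 (from 48 RPKM). Then came Syt7 (23.8) and Syt17 (19.2 RPKM), overlapping, and last Syt9 (10.4) and Syt6 (4.43 RPKM), which did not overlap. In knockdown libraries Syt5 (54.7) and Syt4 (44.0) overlapped, and Syt4 overlapped with Syt1 (30.8 RPKM) although Syt4 was higher within each library. Syt7 (12.02), Syt3 (10.97), Syt17 (10.2) and Syt2 (10.05 RPKM) could not be ordered beyond their spread.

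The make-up of the family is given as a description, with no test. Together Syt4 and Syt11 supplied 38% to 46.1% of the summed RPKM of the 10 genes in controls and 48.6% to 56.6% in knockdown libraries. Syt1 and Syt2 together supplied 20.9% to 24.7% in controls and 10.4% to 15.9% in knockdown libraries. Neither pair overlapped between groups. Syt2 alone moved from 8.81% ± 1.55 to 3.55% ± 0.698 and Syt3 from 7.77% ± 0.970 to 3.84% ± 0.295 (SD, n = 4 each), without overlap. The share of Syt1 overlapped, since control replicate 3 had 10.3%. Such shares do not depend on scaling between libraries, but they are tied to each other, as a lower share of any gene raises the rest.

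**Figure D2:**
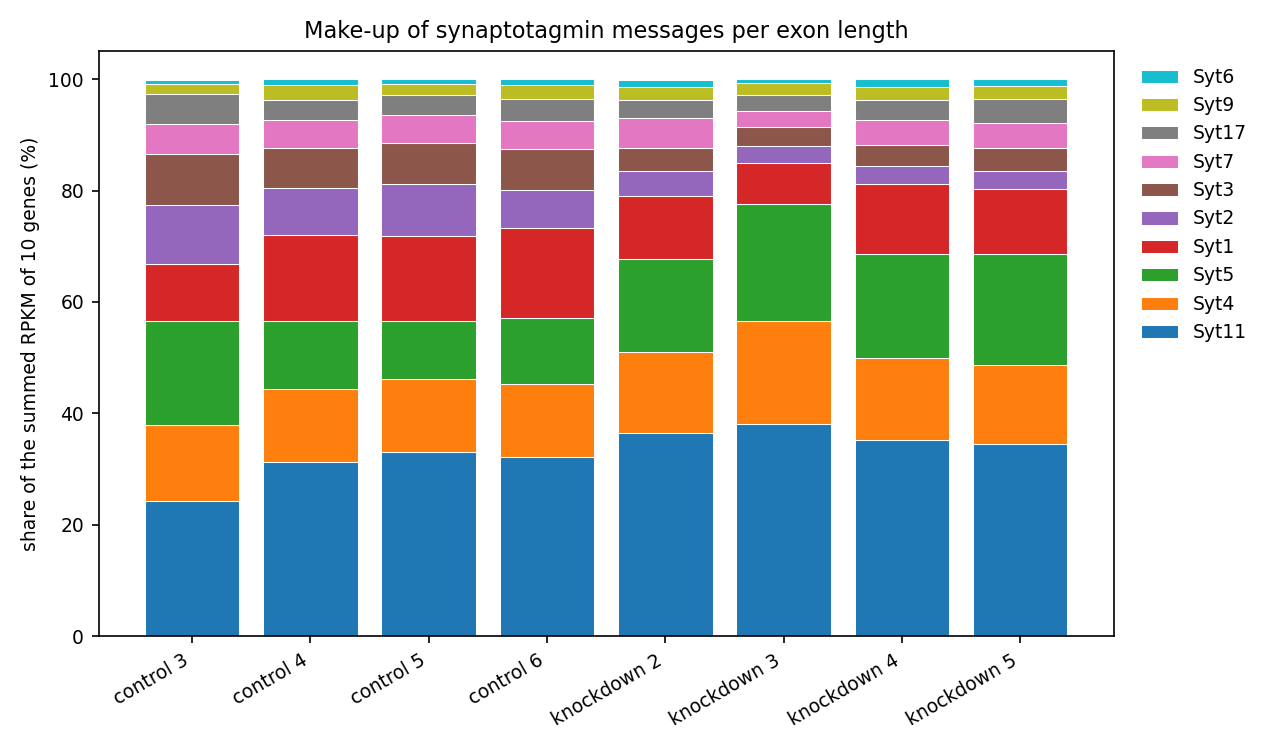
Share of each synaptotagmin gene in the summed RPKM of the 10 genes (%), 1 stacked bar per library, controls at the left and Ogt knockdown libraries at the right. The Syt11 share is 24.2% to 33.1% in controls and 34.5% to 38.1% in knockdown libraries, and the Syt2 share is 6.94% to 10.6% and 3.04% to 4.58%.

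Many genes of the machinery on which synaptotagmins act were also lower relative to all reads. Over all genes tested, 15.1% were called lower and 13.4% higher. Of 18 SNARE and fusion genes, 13 fell, 2 rose and 3 did not pass, but on the pan-neuronal scale, where 1.19% of all genes were lower and 65.2% higher, 4 fell and 6 rose. Among those with the smallest p were Vamp1 (vesicle SNARE, 4.71-fold), Cplx1 (complexin, which binds SNARE complexes and acts with Syt1, 4.01-fold) and Napb (SNARE recycling, 3.17-fold), with edgeR adjusted p from 0.000118 to 0.000432. All 3 were also lower on the pan-neuronal scale, with log2 fold changes of -1.20, -0.98 and -0.63. The 2 that rose were Snap23 (6.40 ± 0.865 to 12.2 ± 2.72 CPM) and Snap29 (21.6 ± 3.88 to 30.6 ± 2.16 CPM; SD, n = 4 each), broadly expressed relatives of the neuronal SNAP-25. With control replicate 4 or 5 or any knockdown replicate left out, 1 gene of the list was called higher in place of 2.

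Genes of synaptotagmin sorting and of vesicle retrieval more broadly formed a list of 15, of which 10 fell, 1 rose and 4 did not pass. The shares over all genes tested were 15.1% lower and 13.4% higher. On the pan-neuronal scale 3 fell and 6 rose, beside 1.19% of all genes lower and 65.2% higher. Sv2a, Sv2b and Sv2c encode the vesicle glycoproteins that bind Syt1, and they fell 2.79-fold, 2.81-fold and 2.77-fold (edgeR adjusted p = 0.000184, 0.000255 and 0.00177). Syp, synaptophysin, fell 2.94-fold (edgeR adjusted p = 0.000237). The member that rose was Ston2, stonin-2, the endocytic adaptor that retrieves Syt1 (11.3 ± 1.68 to 21.4 ± 2.85 CPM, SD, n = 4 each; edgeR adjusted p = 0.00323). Without knockdown replicate 3 the list had 2 members that rose.

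Of 15 priming and calcium channel genes 7 fell, 0 rose and 8 did not pass, beside 15.1% of all genes lower and 13.4% higher. On the pan-neuronal scale 0 fell and 7 rose, beside 1.19% of all genes lower and 65.2% higher. Erc2 (2.10-fold), Cadps (2.12-fold), Cacna1b (1.57-fold) and Cadps2 (1.69-fold) had the smallest p (edgeR adjusted p = 0.00106 to 0.00831). Cacna1b encodes the pore of N-type calcium channels. Of the 7 synaptotagmins outside the 10, 6 passed the filter, and of these 3 fell and 0 rose, namely Syt16 (2.55-fold), Syt13 (1.91-fold) and Syt12 (1.53-fold), while on the pan-neuronal scale 0 fell and 1 rose. Syt15 was next by p and did not pass (log2 fold change -0.60, edgeR adjusted p = 0.286), and Syt8 was too low to test. Of 12 other proteins with C2 domains 5 fell and 0 rose, and on the pan-neuronal scale 3 fell and 4 rose. Esyt1, an extended synaptotagmin at membrane contact sites, fell 3.80-fold, Sytl2 3.33-fold, Rph3a (rabphilin) 2.82-fold and Doc2b, a high-affinity calcium sensor, 1.95-fold (edgeR adjusted p = 0.000447 to 0.0219). Leaving out control replicate 4, control replicate 6 or knockdown replicate 2 gave 3 in place of 5. With the non-neuronal score as a covariate, 6.07% of all genes tested were called lower. The genes lower there were 3 for SNARE and fusion, 4 for sorting and retrieval and 2 for priming. The other synaptotagmins had 0 and the proteins with C2 domains 2. Median log2 fold changes in the main comparison were -0.83 for SNARE and fusion genes, -0.73 for sorting and retrieval, -0.61 for priming, -0.61 for the other synaptotagmins and -0.84 for the proteins with C2 domains, beside -0.77 for the 10 synaptotagmins and -1.05 for pan-neuronal markers.

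**Figure D3:**
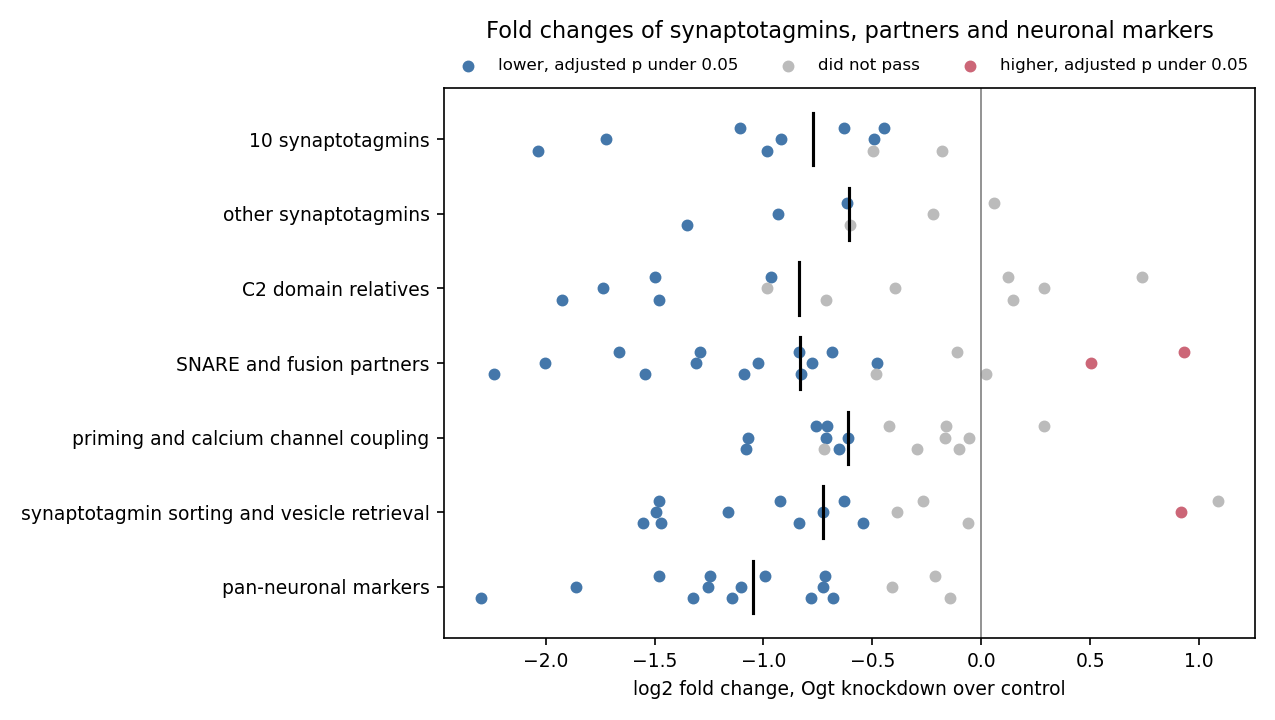
Log2 fold change of Ogt knockdown over control for each gene tested, 1 point per gene, in the 10 synaptotagmins and 6 other lists, with the call by color (edgeR adjusted p under 0.05) and the list median as a black bar. Medians lie between -0.61 and -1.05, and the 3 genes called higher are Snap23, Snap29 and Ston2; on the pan-neuronal scale lists other than the pan-neuronal one hold from 1 to 7 genes called higher.

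How the libraries are put on a common scale changed the sign of the estimate for 7 of the 10 members. Setting the mean log2 CPM of the 16 pan-neuronal markers equal in all libraries moved the median log2 fold change of all genes tested to 1.04. Relative to that median the 10 genes lay between -2.04 and -0.20, close to their values under TMM. Rescaling moves all genes by about the same amount, so this closeness follows from the arithmetic and tests nothing. With the non-neuronal marker score as a covariate, 2 members fell (Syt2 and Syt3), beside 6.07% of all genes tested. That score, the mean log2 CPM of astrocyte, oligodendrocyte, microglia and endothelial markers, was 3.84 to 4.67 in controls and 4.91 to 5.53 in knockdown libraries, with no overlap between the groups, so score and genotype are hard to separate in that fit.

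**Figure D4:**
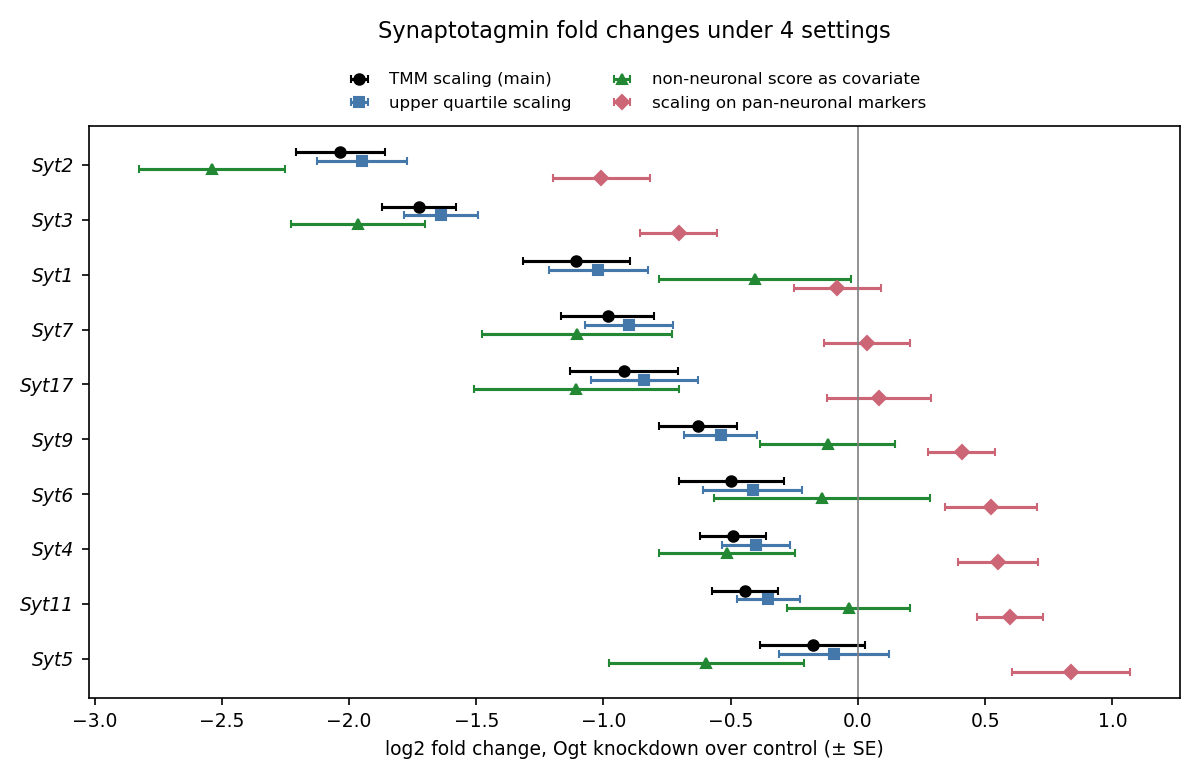
Log2 fold change (± SE) of the 10 synaptotagmin genes, Ogt knockdown over control, under TMM scaling, upper quartile scaling, TMM with a non-neuronal marker score as covariate, and scaling on pan-neuronal markers, 1 point per gene and setting. Syt2 and Syt3 are below 0 under all 4 settings, whereas Syt4, Syt5, Syt6, Syt7, Syt9, Syt11 and Syt17 are above 0 when scaled on pan-neuronal markers.

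Among 13274 other genes with a mean log2 CPM above 0, those whose log2 CPM followed Syt1 most closely over the 8 libraries were Ctif, Klhl1, Csdc2, Gsk3a and Ankrd34b (Pearson r from 0.994 to 0.996, and 0.973 to 0.986 about the group means). For Syt2 they were Lgi3, Panx2, Cds1, Calca and Fkbp1b (r from 0.993 to 0.997, and 0.834 to 0.955 about the group means). These were picked as the highest of many correlations over few libraries that share genotype and depth, and no test attaches to them. Between members, deviations from the group means went together for Syt3 and Syt17 (r = 0.953, and 0.936 over the 6 libraries not numbered 3). For Syt1 and Syt4 the same measure was -0.52 over 8 libraries and 0.993 over those 6, so it rests on the libraries numbered 3; both pairs were chosen after their values were seen.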

How the data were processed

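The authors deposited 1 table with whole-number counts for each gene in the 8 libraries and each gene's exon length in bases. Counts were made with featureCounts 2.0.3 over GENCODE vM30 exons (GRCm39), per the file headers, with the paired-end option but none for strand or for counting pairs. The submitters' processing notes list FastQC, Trimmomatic, STAR and the build mm10; the conflict of builds was not resolved, and coordinates are those of the table. No other values were taken from the authors. Symbols came from a reference table of gene IDs, matched without version (52073 of 56691 matched).

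Genes were filtered with filterByExpr, scaled by TMM and tested with edgeR 4.0.16 (glmQLFit, robust, and glmQLFTest, two-sided) in R 4.3.3, on all 8 libraries, with Benjamini-Hochberg adjustment over 19912 genes and a threshold of 0.05. Gene lists are described by counts and medians. The 2 ratios used exact permutation of the 8 libraries on log2(count + 0.5). The fit was also run on simulated counts with few genes changed and no outlying library. These data differ in both respects, so that run does not vouch for the calls given here. Totals were 49802305 to 147747191 reads, and no same-group libraries were duplicates. Alternatives were 3 other scalings, 2 filters, DESeq2 1.42.0, limma-voom 3.58.1, estimation that is not robust, a replicate block, a marker score covariate, a threshold of 0.01, each library left out, and both libraries numbered 3 left out.

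The rule for names covers the 10 members, Ogt, marker levels, up to 4 genes of smallest p per list, exceptions to a count and 5 genes most like Syt1 and Syt2; 1 gene it covers is not reported here. Members and lists were chosen with earlier results of these data known.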

Additional observations from a re-analysis of the deposited data

Results flagged for a closer look

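The level of a synaptotagmin gene in 1 library lay far from the rest of its group in 5 of 20 sets of 4 libraries. Chance would flag about 1 in 20 independent sets. These sets are not independent, since all 10 genes were read in the same 8 libraries, so the counts cannot show an excess. In 4 of the 5 the library was control replicate 3. Syt1 had 419.3 CPM there, against 589.3 to 604.2 CPM in the other controls. The other 3 genes were high in that library. Syt3 had 139.8 CPM, against 102.5 to 106.3 CPM. Syt4 had 261.0 CPM, against 233.2 to 235.2 CPM. Syt17 had 135.2 CPM, against 85.8 to 92.9 CPM. Endothelial markers summed to 1140 CPM in the same library and dopamine neuron markers to 4026 CPM (2257 to 2902 CPM in the other controls); their part in these values was not tested. The fifth was Syt7 in knockdown replicate 3, at 57.5 CPM against 100.2 to 101.7 CPM in the other knockdown libraries.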

How the results depend on the processing

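The count of 8 members lower and 0 higher became 2 lower and 5 higher on the pan-neuronal scale, 2 lower with the non-neuronal score as a covariate and 4 lower at a threshold of 0.01. With upper quartile scaling the count was 6 lower. It was 9 lower with limma-voom, and also 9 lower without both libraries numbered 3. It was 7 to 8 when single libraries were left out. On the pan-neuronal scale the log2 fold change turned positive for Syt4 (0.55), Syt5 (0.84), Syt6 (0.52), Syt7 (0.035), Syt9 (0.41), Syt11 (0.60) and Syt17 (0.082), where the median of all genes moved to 1.04. The 5668 genes called across the table became 13216 on that scale (236 lower and 12980 higher), 10218 with limma-voom, 1685 with the covariate, 9565 without both libraries numbered 3, 2679 at a threshold of 0.01 and 3876 to 7198 with single libraries left out. With upper quartile scaling 2432 genes were lower and 3176 higher, against 3009 and 2659. With the replicate number as a block 3 members were lower (Syt1, Syt2 and Syt3) and 1258 genes were called; Syt4, Syt7, Syt9, Syt11 and Syt17 missed the threshold (edgeR adjusted p = 0.061 to 0.206). The genes lower under the block were 6 for SNARE and fusion, 3 each for sorting, priming and C2 proteins. For the other synaptotagmins the number was 1, and over all 19912 genes tested it was 778. Deviations of same-numbered libraries correlated at 0.104, 0.099 and 0.042, and not every library correlated best with its own number, so the numbers were not taken as pairs. The difference in the Syt2 to Syt1 ratio was -1.06 to -0.65, and that of Syt7 to Syt1 0.03 to 0.28, with single libraries left out. The causes of the other differences were not tested. The lowest count of any member in any library was 618 reads, and the effect of depth was not tested.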
